A study of Drosophila melanogaster with 12 samples.

Results

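Gypsy-named LTR retrotransposons are the rows of the deposited repeat tables whose type is LTR retrotransposon and whose name starts with Gypsy in any letter case. They were 30 of 203 rows in the H3K9me3 table and 27 of 199 rows in the H3K36me3 table. The 30 rows were 14 internal parts and 16 terminal repeats, a row being terminal where its name contains LTR. The rows GYPSY7_LTR, GYPSY8_LTR and GYPSY9_LTR were in the H3K9me3 table only, so 13 terminal repeats had an H3K36me3 value. Both parts were present for 14 subfamilies with H3K9me3 and for 11 with H3K36me3. The terminal repeats GYPSY6A_LTR and GYPSY12A_LTR had no internal row of the same name.

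Gypsy is the founding member of a large group of retrovirus-like transposons. The internal part of such an element holds the gag and pol genes and, in the founding gypsy and several relatives, an env gene. It is flanked by long terminal repeats, identical when the element inserts, which hold the promoter and the polyadenylation signal. In the fly ovary the founding gypsy is silenced through the flamenco locus, a source of small RNAs that guide the protein Piwi. H3K9me3 is the histone mark of heterochromatin and is bound by HP1a, and H3K36me3 is a mark of transcribed gene bodies. KDM4A is a Jumonji-domain histone demethylase, and the Drosophila protein binds HP1a.

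The cells were of the Drosophila melanogaster S2 line, an established culture derived from embryos. They received double-stranded RNA against GFP, the control, or against KDM4A for 5 days with the DOTAP reagent, and no other treatment is named in the labels. Chromatin immunoprecipitation and sequencing with an antibody to H3K9me3 or H3K36me3, or sequencing of input, gave 12 libraries in 6 groups of 2, numbered 3 and 4 in each group. The tables hold 1 mean enrichment, a linear ratio, for each row, mark and treatment. No difference given here therefore has a replicate check, no value has an error, and depth is unknown. The tables list repeats and histone genes, so neither the KDM4A transcript nor markers of the cell line could be checked. They give no sequence and no position in the genome, and element sequences were not used here.

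In GFP RNAi cells 84.7% of all rows were above an H3K9me3 enrichment of 1, and so were 28 of the 30 Gypsy-named rows (93.3%). Their median was 2.82, against 2.26 for the 92 other LTR retrotransposon rows and 2.32 for all 203 rows. The levels ran over a 17.8-fold range, from 0.370 to 6.60. The highest were GYPSY8_LTR at 6.60, GYPSY8_I at 6.50 and GYPSY7_I at 4.73, which ranked 2, 3 and 6 of all 203 rows. Next among the Gypsy-named rows was GYPSY12_I at 4.19. At the other end stood Gypsy1-LTR_DM at 0.370, Gypsy1-I_DM at 0.621 and GYPSY5_LTR at 1.47, followed by GYPSY5_I at 1.48. Both parts of GYPSY8 thus headed the members and both parts of Gypsy1_DM closed them, the only subfamily below an enrichment of 1. The founding element was in between, with 2.57 at GYPSY_I and 1.96 at GYPSY_LTR. Since the values have no error, neighbours in this order cannot be told apart.

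**Figure D1:**
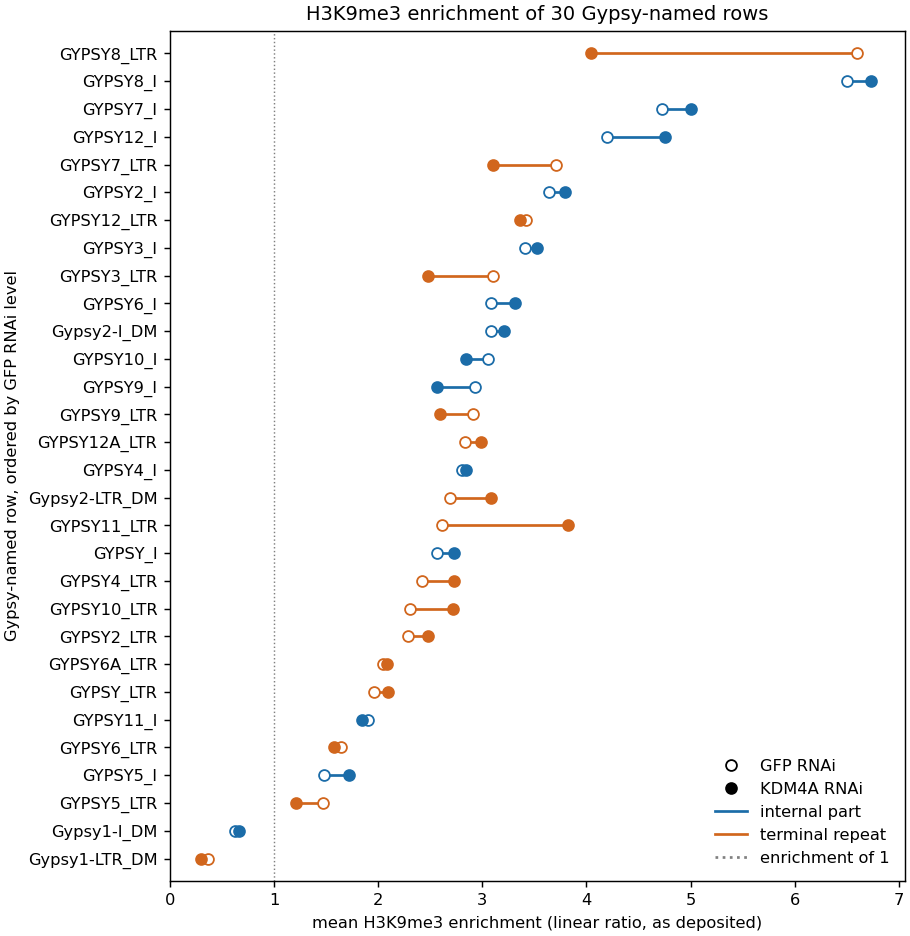
Mean H3K9me3 enrichment (linear ratio, x axis) of the 30 Gypsy-named rows (y axis), with GFP RNAi as open and KDM4A RNAi as filled circles, joined by a line, blue for internal parts and orange for terminal repeats. GYPSY8_LTR, at 6.60 and 4.04, has the longest line, and only the Gypsy1_DM rows lie below 1.

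The internal part carried more H3K9me3 than the terminal repeat in 12 of 14 subfamilies in GFP RNAi cells. The median internal level was 3.07 and the median terminal level 2.52, and within a subfamily the internal part was higher by a median of 1.19-fold. This ratio is taken within 1 column, so the scaling between treatments does not enter it. The largest gap was at GYPSY6, with 3.08 at the internal part and 1.64 at the terminal repeat, a 1.87-fold difference. Gypsy1_DM followed with 0.621 and 0.370, and GYPSY2 with 3.64 and 2.29. The order was opposite at GYPSY11, with 1.90 at the internal part and 2.61 at the terminal repeat, and at GYPSY8 by a small margin. At GYPSY5 and GYPSY9 the parts had almost the same value, 1.48 and 1.47, and 2.93 and 2.91. Of the other LTR retrotransposons with both parts, 26 of 42 had the higher level at the internal part, by a median of 1.16-fold. The difference between these shares was not tested.

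After KDM4A RNAi the internal part was again the higher one in 12 of 14 subfamilies, and the median gap was 1.42-fold. The median levels of the parts were closer than in GFP RNAi cells, at 3.02 (internal) and 2.65 (terminal). Relative to the internal part, the terminal repeat rose in 7 of the 14 subfamilies and fell in 7, so no general widening was seen. In the other LTR elements this gap was 1.12-fold, with the internal part higher in 25 of 42. At GYPSY8 the parts separated, with 6.73 at the internal part and 4.04 at the terminal repeat. At GYPSY11 the gap widened the other way, with 1.85 and 3.82. GYPSY9 turned to a terminal repeat 1.01-fold above the internal part.

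**Figure D2:**
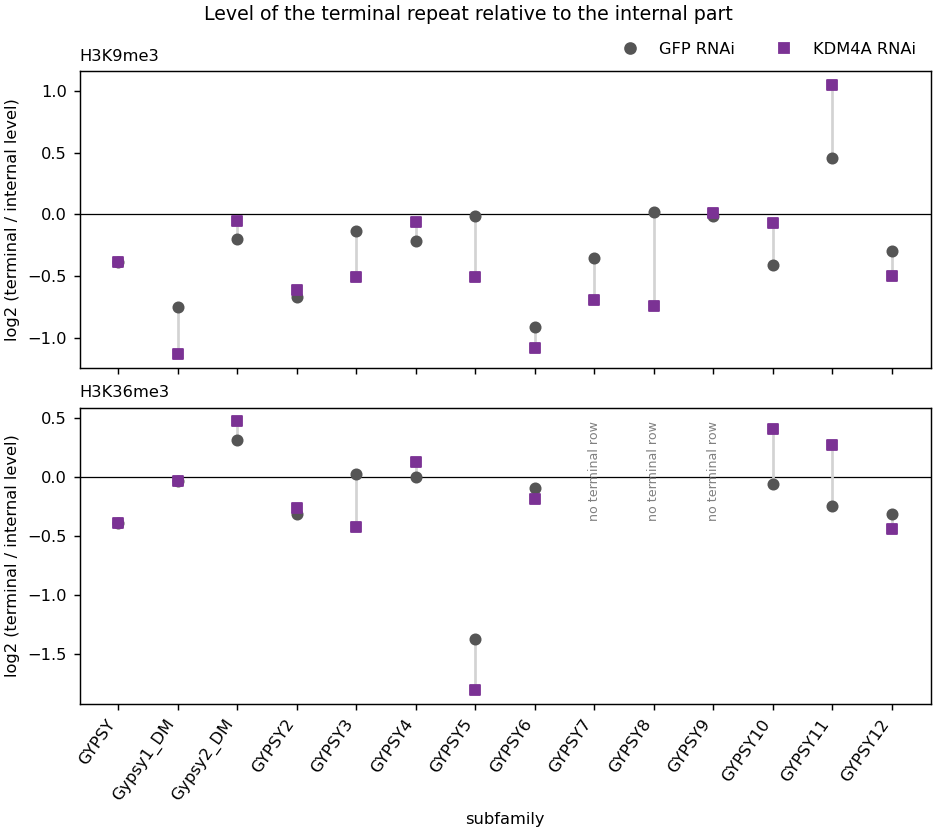
Log2 of the terminal over the internal level (y axis) for each Gypsy-named subfamily (x axis) in GFP RNAi cells (grey circles) and KDM4A RNAi cells (purple squares), for H3K9me3 (top, 14 subfamilies) and H3K36me3 (bottom, 11). Values below 0 are subfamilies with more of the mark at the internal part, which were 12 of 14 for H3K9me3 and 9 of 11 for H3K36me3 in GFP RNAi cells.

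KDM4A RNAi was compared with GFP RNAi for both marks over repeats, and depletion of the demethylase could not be checked. H3K9me3 was higher after KDM4A RNAi at 19 of 30 Gypsy-named rows (63.3%) and lower at 11, a share close to that of all rows, of which 64.5% were higher and 35.5% lower. The median log2 ratio was 0.05, and it was 0.04 over the other LTR rows and 0.04 over all rows. When each column was divided by its median over all rows (centring), 17 were higher and 13 lower, against 55.7% of all rows higher. Most of the differences were small. Past a threshold of 1.2 times there was 1 row with a higher value (3.33% of the 30, beside 4.93% of all rows). There were 4 with a lower value (13.3%, beside 7.39% of all rows). After centring there were 1 higher (3.33%, beside 4.43% of all rows) and 5 lower (16.7%, beside 10.8% of all rows).

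All 5 rows past the threshold as deposited were terminal repeats, and so were all 6 after centring. GYPSY11_LTR was the one higher row, at 2.61 in GFP RNAi and 3.82 in KDM4A RNAi cells, a log2 ratio of 0.55. GYPSY8_LTR was at 6.60 and 4.04, a log2 ratio of -0.71. It was 1.63-fold lower and moved from rank 2 to rank 22 of all rows. In that direction 5 of 203 rows (2.46%) were past 1.5 times, and GYPSY8_LTR was the only Gypsy-named one. GYPSY3_LTR was at 3.10 and 2.48, with a log2 ratio of -0.32. Gypsy1-LTR_DM was at 0.370 and 0.302, with a log2 ratio of -0.29 that rests on a linear difference of only 0.068. GYPSY5_LTR was at 1.47 and 1.21, with a log2 ratio of -0.28. With a pseudocount of 1 added to both means, GYPSY11_LTR and GYPSY8_LTR stayed past 1.2 times and the other 3 came below it. Just under this threshold were GYPSY7_LTR, lower with 3.71 and 3.10 and past it after centring, and GYPSY10_LTR, higher with 2.30 and 2.72. The largest ratios upward after GYPSY11_LTR were those of GYPSY10_LTR and of the internal part GYPSY5_I, the latter at 1.48 and 1.72.

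The internal parts lay close together. Of the 14, 11 were higher (78.6%) and 3 lower. This share was near the 74.4% of the other LTR internal rows (27 of 43 after centring), and 64.5% of all rows were higher. The log2 ratios of the 14 ran from -0.19 to 0.22 with a standard deviation over rows of 0.11. After centring 10 were higher and 4 lower, since GYPSY4_I (2.80 and 2.84) changed sides. The internal parts with the highest levels were slightly higher in the deposited and the centred values, GYPSY8_I at 6.50 and 6.73, GYPSY7_I at 4.73 and 5.00 and GYPSY12_I at 4.19 and 4.76. GYPSY8_I was the row with the highest H3K9me3 of all 203 in KDM4A RNAi cells. The founding GYPSY_I was at 2.57 and 2.73. GYPSY2_I was at 3.64 and 3.79, GYPSY3_I at 3.41 and 3.52, GYPSY6_I at 3.08 and 3.32, Gypsy2-I_DM at 3.08 and 3.20, and Gypsy1-I_DM at 0.621 and 0.661. The 3 lower internal parts were GYPSY9_I (2.93 and 2.57), GYPSY10_I (3.06 and 2.84) and GYPSY11_I (1.90 and 1.85).

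The terminal repeats were spread more widely. Of the 16, 8 were higher (50%) and 8 lower, beside 60.9% higher among the other LTR terminal rows (25 of 46 after centring). The log2 ratios of the 16 ran from -0.71 to 0.55, with a standard deviation over rows of 0.29. After centring 7 were higher and 9 lower, as GYPSY6A_LTR (2.05 and 2.08) changed sides. In the other LTR elements the standard deviation was 0.16 over 46 terminal rows and 0.14 over 43 internal rows. There 4 terminal and 3 internal rows were past 1.2 times. The remaining terminal repeats were GYPSY_LTR at 1.96 and 2.09, GYPSY2_LTR at 2.29 and 2.48, GYPSY4_LTR at 2.42 and 2.73, Gypsy2-LTR_DM at 2.69 and 3.08 and GYPSY12A_LTR at 2.84 and 2.98, which were higher. GYPSY6_LTR at 1.64 and 1.57, GYPSY9_LTR at 2.91 and 2.59 and GYPSY12_LTR at 3.42 and 3.36 were lower. The number of reads behind a row was not available, and whether terminal rows had fewer reads was not tested.

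**Figure D3:**
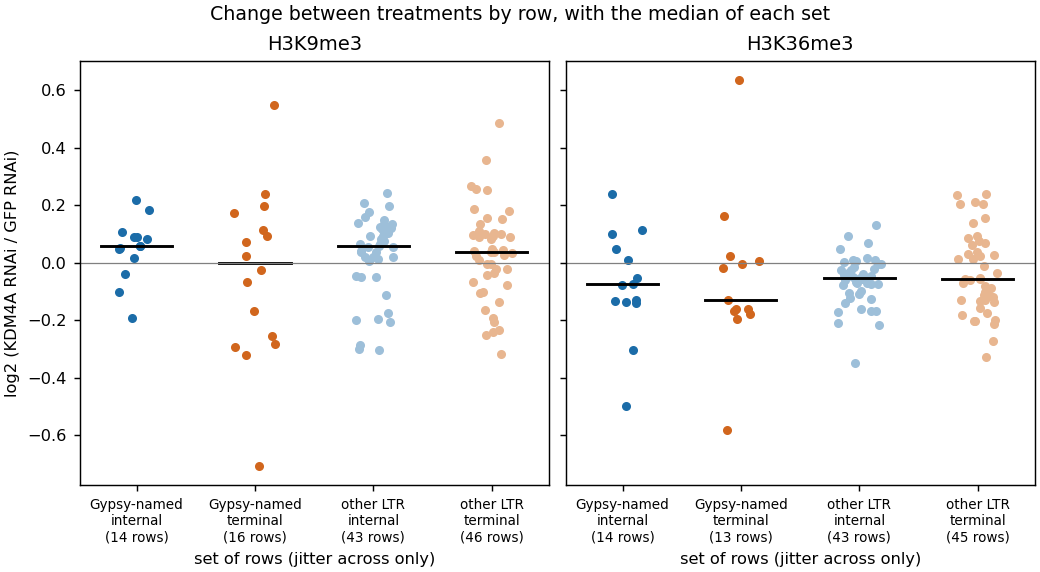
Log2 ratio of KDM4A RNAi to GFP RNAi (y axis) of each internal and terminal row of Gypsy-named and other LTR retrotransposons (x axis, 1 point per row, black line at the median), for H3K9me3 (left) and H3K36me3 (right). The H3K9me3 points of Gypsy-named terminal repeats run from -0.71 to 0.55 and those of their internal parts from -0.19 to 0.22.

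H3K36me3 in GFP RNAi cells was above 1 at 11 of 27 Gypsy-named rows (40.7%), close to the 40.2% of all rows. The Gypsy-named median was 0.949. The median was 0.879 over the 91 other LTR rows and 0.898 over all 199. The levels ran over a 5.29-fold range, from 0.540 to 2.86, narrower than for H3K9me3 when all rows were kept. That order rested on Gypsy1_DM, which set the low end for H3K9me3 (0.370 and 0.621). Without that subfamily the H3K9me3 levels ran from 1.47 to 6.60. The H3K36me3 range then stayed the same, and the H3K9me3 range was no longer the wider one. For H3K36me3 GYPSY5_I stood far above the rest at 2.86, and it ranked 4 of all 199 rows. GYPSY12A_LTR at 1.83 and GYPSY7_I at 1.51 came next, then Gypsy2-LTR_DM at 1.47. The lowest rows were GYPSY_LTR at 0.540, Gypsy1-LTR_DM at 0.668 and Gypsy1-I_DM at 0.684, with GYPSY11_LTR at 0.688. The internal row of the founding gypsy, GYPSY_I, was also low, at 0.708.

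The internal part had more H3K36me3 than the terminal repeat in 9 of 11 subfamilies in GFP RNAi cells and in 7 of 11 in KDM4A RNAi cells, by a median of 1.07-fold and 1.14-fold. In the other LTR elements it was the higher part in 25 and 21 of 41, by a median of 1.07-fold and 1.04-fold. The gap was widest at GYPSY5, where the internal part was at 2.86 and the terminal repeat at 1.10, 2.59-fold apart. The next largest gaps were at the founding element, with 0.708 and 0.540, and at GYPSY12, with 0.870 and 0.699. GYPSY2 had 1.18 and 0.949. The parts had almost the same value at GYPSY4 (1.265 and 1.263) and Gypsy1_DM (0.684 and 0.668). The terminal repeat was the higher part at Gypsy2_DM, with 1.19 at the internal part and 1.47 at the terminal repeat, and at GYPSY3 by a small margin.

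**Figure D4:**
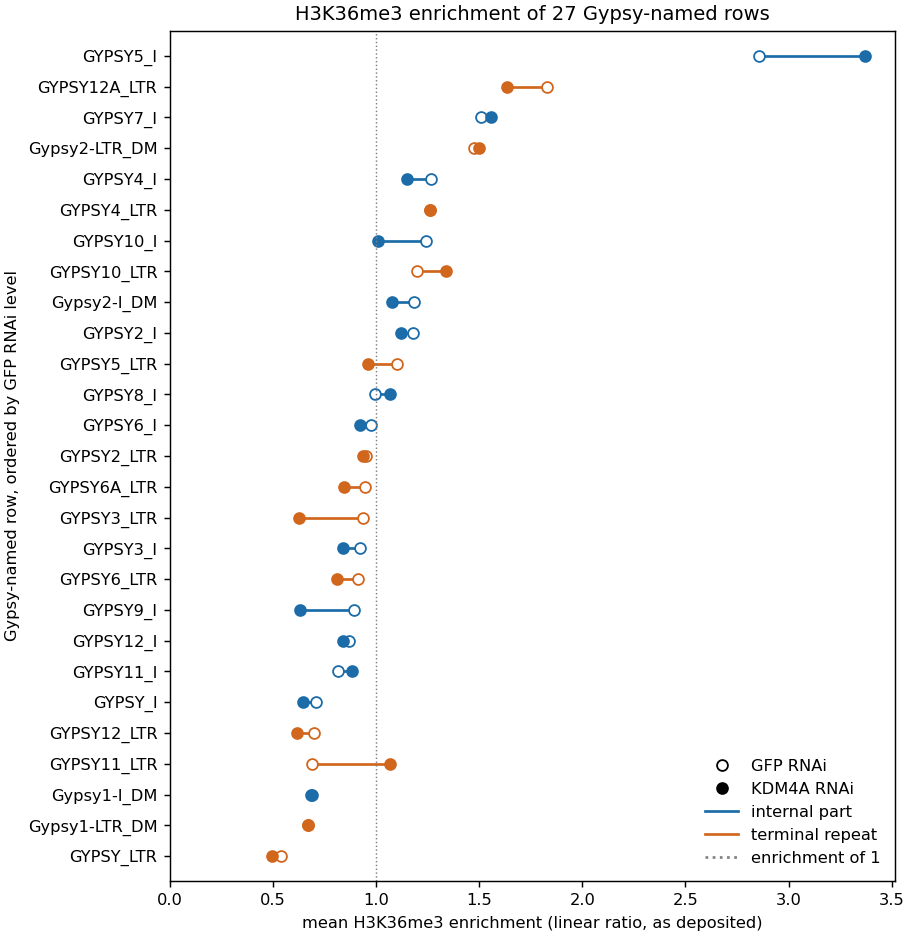
Mean H3K36me3 enrichment (linear ratio, x axis) of the 27 Gypsy-named rows (y axis), drawn with open circles for GFP RNAi, filled circles for KDM4A RNAi, blue for internal parts and orange for terminal repeats. GYPSY5_I lies alone at 2.86 and 3.37, and GYPSY11_LTR runs from 0.688 to 1.07.

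After KDM4A RNAi 9 of 27 Gypsy-named rows (33.3%) had a higher H3K36me3 value and 18 a lower one, beside 33.7% higher and 65.3% lower among all rows. After centring 14 were higher and 13 lower, with 62.3% of all rows higher. The direction of the set as a whole therefore depended on the scaling. The median log2 ratio was -0.08 as deposited and 0.01 after centring, and over all rows it was -0.05 and 0.04. Past 1.2 times there was 1 higher row (3.70% of the 27, beside 4.02% of all rows). There were 3 lower rows (11.1%, beside 6.03% of all rows). None of these 4 rows changed direction when columns were centred. Centring brought GYPSY10_I below the threshold and GYPSY5_I past it. That left 2 higher rows (7.41%, beside 9.55% of all rows) and 2 lower rows (7.41%, beside 1.01% of all rows). Those 2 lower rows were the only such rows among all 199.

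GYPSY11_LTR was the row with the higher value, 0.688 in GFP RNAi and 1.07 in KDM4A RNAi cells, a log2 ratio of 0.63. It was 1.55-fold higher. Upward, 5 of 199 rows (2.51%) were past 1.5 times, and GYPSY11_LTR was the only Gypsy-named one. The lower rows were GYPSY3_LTR, with 0.938 and 0.627 and a log2 ratio of -0.58, and GYPSY9_I, with 0.892 and 0.631 and a log2 ratio of -0.50. GYPSY10_I was at 1.24 and 1.01, a log2 ratio of -0.30. With a pseudocount of 1 the 3 lower rows came below 1.2 times and GYPSY11_LTR stayed past it. Below the threshold as deposited, GYPSY5_I had the second largest ratio upward, at 2.86 and 3.37 and past 1.2 times after centring, and GYPSY10_LTR the third, at 1.197 and 1.341.

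The other internal parts differed little. GYPSY7_I was at 1.51 and 1.56, GYPSY8_I at 0.996 and 1.07, GYPSY11_I at 0.816 and 0.884 and Gypsy1-I_DM at 0.684 and 0.688, all higher. Lower in the deposited and the centred values were GYPSY_I (0.708 and 0.646), GYPSY3_I (0.920 and 0.840), GYPSY4_I (1.27 and 1.15) and Gypsy2-I_DM (1.19 and 1.08). GYPSY2_I (1.18 and 1.12), GYPSY6_I (0.975 and 0.924) and GYPSY12_I (0.870 and 0.838) were lower as deposited and higher after centring. In all, 5 internal parts were higher (35.7%) and 9 lower, and 8 and 6 after centring. Of the other LTR internal rows 20.9% were higher, and 30 of 43 after centring.

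Of the 13 terminal repeats, 4 were higher (30.8%) and 9 lower, and 6 and 7 after centring. Of the other LTR terminal rows 40% were higher, and 27 of 45 after centring. Gypsy2-LTR_DM (1.474 and 1.499) and Gypsy1-LTR_DM (0.668 and 0.671) were higher by 0.025 and 0.003 in linear units. GYPSY_LTR (0.540 and 0.493), GYPSY5_LTR (1.10 and 0.961), GYPSY6_LTR (0.912 and 0.812), GYPSY6A_LTR (0.944 and 0.844), GYPSY12_LTR (0.699 and 0.617) and GYPSY12A_LTR (1.83 and 1.64) were lower on both scales. GYPSY2_LTR (0.949 and 0.936) and GYPSY4_LTR (1.263 and 1.259) were lower as deposited and higher after centring. The standard deviation of the log2 ratios over rows was 0.27 for the terminal repeats and 0.18 for the internal parts, and 0.14 and 0.09 in the other LTR elements.

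Within a subfamily the change of the terminal repeat was compared with that of the internal part, by the difference of their log2 ratios. Centring leaves that difference as it is, but not the size of either change. For H3K9me3 the log2 ratio of the terminal repeat was above that of the internal part in 7 of 14 subfamilies and below it in 7. The size of the difference had a median of 0.27, and it was 0.14 in the 42 other LTR elements. In 11 of 14 subfamilies the terminal repeat had the larger change in size, and in 21 of 42 of the others (12 of 14 and 20 of 42 after centring). The parts differed in direction in 9 of 14 subfamilies, and GYPSY4 joined the 9 after centring. As deposited, the internal part was higher and the terminal repeat lower after KDM4A RNAi in 7 of the 9, and 2 were the reverse. Of the 42 others, 9 had the internal part higher and the terminal repeat lower, and 6 the reverse. For H3K36me3 these counts were 1 and 2 of 11 Gypsy-named subfamilies, and 3 and 11 of 41 others, as deposited. After centring the H3K36me3 parts of GYPSY4, GYPSY6 and GYPSY12 also differed in direction, so these counts depended on the scaling. For H3K36me3 the size of the difference had a median of 0.13 over 11 subfamilies and 0.08 over the 41 other elements, and the terminal repeat had the larger change in 4 of 11 and in 28 of 41. After centring these were 8 of 11 and 25 of 41, so the order of Gypsy-named and other elements turned with the scaling. These shares were not tested against each other.

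The largest such differences (terminal minus internal log2 ratio) for H3K9me3 were at GYPSY8 with -0.76, GYPSY11 with 0.59 and GYPSY5 with -0.50. For H3K36me3 they were at GYPSY11 with 0.52, GYPSY10 with 0.47 and GYPSY3 with -0.45, and GYPSY5 had -0.44. In the H3K9me3 table GYPSY10 had 0.34 and GYPSY3 -0.37. GYPSY12 had -0.21 for H3K9me3 and -0.13 for H3K36me3, GYPSY6 -0.17 and -0.09, GYPSY4 0.16 and 0.13, and Gypsy2_DM 0.14 and 0.16. Gypsy1_DM differed between the tables, with -0.38 for H3K9me3 and -0.002 for H3K36me3. The founding gypsy had the smallest differences in size, 0.004 and 0.001, and GYPSY2 had 0.06 and 0.05. GYPSY7 at -0.34 and GYPSY9 at 0.02 had an H3K9me3 value only. Input libraries are labelled by treatment and not by antibody, so both tables may share input libraries. For that reason no measure of likeness between the changes of the marks is given.

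**Figure D5:**
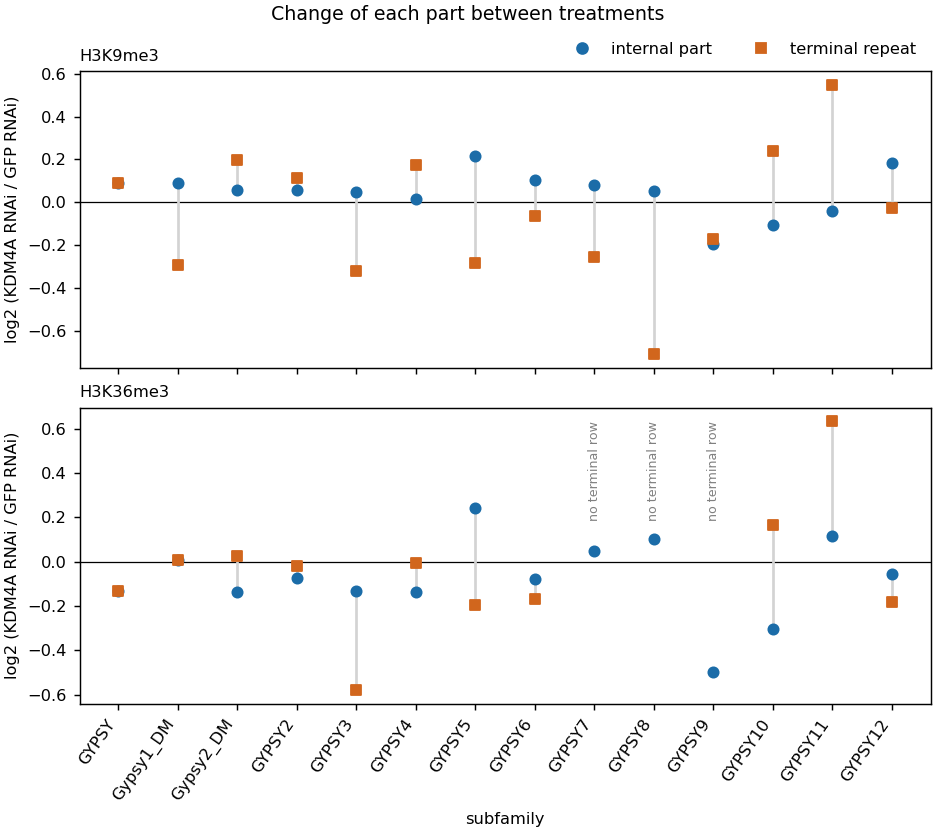
Log2 ratio of KDM4A RNAi to GFP RNAi (y axis) of the internal part (blue circles) and terminal repeat (orange squares) of each Gypsy-named subfamily (x axis), for H3K9me3 (top) and H3K36me3 (bottom, with no terminal row for GYPSY7, GYPSY8 and GYPSY9). The parts lie farthest apart at GYPSY8 and GYPSY11 for H3K9me3, by 0.76 and 0.59, and at GYPSY11 for H3K36me3, by 0.52.

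The marks ordered the Gypsy-named rows differently in GFP RNAi cells. Over the 27 rows in both tables Spearman's rho of the levels was 0.23. It is a description over rows that share libraries and, in pairs, an element, and the marks may share input libraries. GYPSY5_I ranked first of the 27 for H3K36me3 and 24 for H3K9me3. GYPSY12_LTR ranked 5 for H3K9me3 and 23 for H3K36me3, and GYPSY12_I ranked 3 and 20. GYPSY8_I, first for H3K9me3, ranked 12 for H3K36me3. GYPSY7_I was near the top of both, at rank 2 and rank 3. Both Gypsy1_DM rows were near the bottom of both, at ranks 26 and 27 for H3K9me3 and 25 and 26 for H3K36me3.

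Both subfamilies with a second terminal variant had a row for each variant in both tables. GYPSY12A_LTR had 2.62-fold more H3K36me3 than GYPSY12_LTR in GFP RNAi cells (1.83 and 0.699) and 1.21-fold less H3K9me3 (2.84 and 3.42). GYPSY6A_LTR had 1.25-fold more H3K9me3 than GYPSY6_LTR (2.05 and 1.64), and their H3K36me3 levels were 0.944 and 0.912. How reads that match both variants were assigned is not given in the sources used here.

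Relatives of gypsy under other names were taken as a list of 24 rows, all present in both tables. They include ZAM and Idefix, endogenous retroviruses that the flamenco locus also silences in the ovary, and Tirant, another endogenous retrovirus. Their median H3K9me3 level in GFP RNAi cells was 2.11 and their median H3K36me3 level 0.698. For H3K36me3, 1 of the 24 was above 1, against 11 of 27 Gypsy-named rows and 40.2% of all rows. After KDM4A RNAi 11 of 24 (45.8%) were higher in H3K9me3 and 13 lower (8 and 16 after centring), and their log2 ratios had a median of -0.03. Over all rows 64.5% were higher, and 55.7% after centring. For H3K36me3 only NOMAD_LTR of the 24 (0.661 and 0.679) was higher and 23 were lower (8 and 16 after centring), with a median of -0.12. Over all rows 33.7% were higher and 65.3% lower, and 62.3% were higher after centring. As deposited none of the 24 was past 1.2 times for H3K9me3, beside 4.93% of all rows higher and 7.39% lower. For H3K36me3 2 were past it (8.33%), both lower, beside 4.02% of all rows higher and 6.03% lower. After centring 2 of the 24 were past it for H3K9me3 (8.33%), both lower (DM176 at 0.968 and 0.810, and GTWIN_LTR at 2.37 and 2.00), and none for H3K36me3. Of all rows 4.43% were then higher past it and 10.8% lower for H3K9me3, and 9.55% and 1.01% for H3K36me3. TIRANT_I was at 0.966 and 0.844 for H3K9me3, ZAM_LTR at 2.71 and 2.91, and GTWIN_I at 3.31 and 3.33, the last of which turned to lower after centring. For H3K36me3 the 2 rows past the threshold in the deposited values alone were ACCORD2_LTR at 0.916 and 0.729 and GTWIN_LTR at 0.990 and 0.819.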

How the data were processed

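ChIP-seq of H3K9me3 and H3K36me3 in S2 cells after GFP or KDM4A RNAi was used. The authors deposited 1 table per antibody with a mean linear enrichment ratio per repeat row and treatment, per the file headers, given to 3 decimals. The submitters' processing notes name Bowtie and MACS2 with neither version nor role. Not given in the sources used here are the build, the repeat library, the denominator of the enrichment, the scaling for depth, the handling of reads that match several copies, and which libraries each mean holds.

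The log2 ratio of KDM4A RNAi to GFP RNAi was computed per row with no pseudocount (Python 3.11.15, pandas 2.3.3), and levels and ratios were compared between parts within a table. With 1 mean per treatment the intended limma fit had no replicates, so a threshold of 1.2 times stands in for a test. Every Gypsy-named row is named, with the 3 highest and lowest levels, the 3 largest log2 ratios each way and the 3 largest gaps between parts in each table described in more detail. The members and lists were chosen with earlier results of these data known, and the list of gypsy relatives held rows whose names start with ZAM, IDEFIX, GTWIN, TIRANT, ROVER, QUASIMODO, DM176, DM297, NOMAD, BURDOCK or ACCORD (SPRINGER and OPUS matched none). Computations were checked on simulated tables. Alternatives were a pseudocount of 1, centring, means, 1 value per subfamily, rows at or above the median level, 1.5 times and the KDM4A RNAi column.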

Additional observations from a re-analysis of the deposited data

How the results depend on the processing

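No paired analysis was possible because only means were deposited, and for the same reason no replicate could be left out. Restricting H3K9me3 to what is in both tables, and centring for the gypsy relatives, the larger change of the parts and the split by level, were chosen after seeing the data. The cause of each move was not tested, except that centring moves every row of a table equally (it subtracts 0.031 from the H3K9me3 log2 ratios and -0.089 from those of H3K36me3) and a pseudocount shrinks them by construction. The median log2 ratio of the Gypsy-named rows for H3K9me3 (0.054) was 0.040 with a pseudocount of 1, 0.023 after centring and, reversed by a negligible amount, -1.1e-05 as a mean. For H3K36me3 (-0.078) it was -0.040 with a pseudocount of 1, -0.067 as a mean, -0.063 with each subfamily once, and reversed to 0.012 after centring. The number of higher rows was 8 of 14 subfamilies for H3K9me3 (19 of 30 rows), and for H3K36me3 (9 of 27 rows) it was 14 after centring and 5 of 14 subfamilies. At 1.5 times in place of 1.2 times, 1 row in place of 5 was past the threshold for H3K9me3 and 1 in place of 4 for H3K36me3. The median H3K9me3 level (2.82) was 2.78 in KDM4A RNAi cells, 2.88 as a mean, 2.78 per subfamily and 2.69 over rows in both tables, and the median H3K36me3 level (0.949) was 0.936, 1.09 as a mean and 1.03 per subfamily. The median log2 of terminal over internal level for H3K9me3 (-0.25) was -0.19 with a pseudocount, -0.50 in KDM4A RNAi cells, -0.27 as a mean and -0.29 over the 11 subfamilies in both tables. For H3K36me3 (-0.096) these were -0.047, -0.19 and -0.23. The median terminal minus internal log2 ratio for H3K9me3 (-0.084) was -0.055 with a pseudocount, -0.10 as a mean and reversed to 0.0043 over those 11 subfamilies, since GYPSY7, GYPSY8 and GYPSY9 drop out. For H3K36me3 (0.001) it was 0.021 as a mean. Of 57 single values, 7 changed sign after centring, and none of them was past 1.2 times. With a pseudocount of 1, 6 of the 9 rows past 1.2 times came below it. Depth behind every value is unknown.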

Other observations

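The Gypsy-named rows were also split by level. Among the 15 rows with the higher mean of both columns, 11 were higher in H3K9me3 after KDM4A RNAi and 4 lower. Among the other 15, from 0.336 to 2.79 in mean level, 8 were higher and 7 lower. After centring these were 10 and 5, and 7 and 8. For H3K36me3 the 14 rows with the higher level were 5 higher and 9 lower, and 9 and 5 after centring, so their majority turned with the scaling. The other 13 were 4 and 9, and 5 and 8 after centring. Over all rows 64.5% were higher in H3K9me3 and 33.7% in H3K36me3, and 55.7% and 62.3% after centring. Gypsy-named rows made up 3 of the 10 rows and 4 of the 20 rows with the most H3K9me3 in GFP RNAi cells, and 14.8% of the table. The 3 were both parts of GYPSY8 and GYPSY7_I. At the low end, 2 of the lowest 10 and 2 of the lowest 20 rows were Gypsy-named. For H3K36me3 Gypsy-named rows were 1 of the top 10 and 2 of the top 20, and 13.6% of the table. None was among the lowest 20.

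The level of a terminal repeat followed that of its internal part across subfamilies in GFP RNAi cells. Spearman's rho was 0.74 over 14 subfamilies for H3K9me3 and 0.90 over 11 for H3K36me3. In the other LTR elements it was 0.75 over 42 and 0.69 over 41. Both parts of 1 element share libraries and may share insertion sites, which were not available, so these are descriptions.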
